A study of Taxus mairei and Taxus cuspidata and Taxus x media with 9 samples.

Results

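The MYB transcription factors of 3 yews were described from RNA sequencing of twigs. The members are all unigenes (assembled gene models) whose gene name is MYB followed by a number or whose KEGG ortholog text reads myb proto-oncogene protein, plant. The rule found 69 of 33895 unigenes, 42 of them by name as well and all 69 by the ortholog text. Of the other members, 20 carried another gene name and 7 carried none.

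The libraries came from fresh twigs, which held both wood and needles, of 3-year-old trees of T. media (an interspecific hybrid yew), T. cuspidata and T. mairei, with 3 libraries per species. The trees grew at 25 °C under 12 h of light a day, and no treatment, transgene or mutation is named for any group. Which tree went into which library is not given in the sources used here, so the p-values measure the spread between these libraries. One T. mairei library, replicate 3, was deposited without counts, so it enters the levels but not the count test.

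MYB proteins bind DNA through repeats of the MYB domain, and most of those in plants carry the repeats R2 and R3. In flowering plants, R2R3-type MYB proteins switch phenylpropanoid, flavonoid and anthocyanin genes on or off, often together with a bHLH and a WD40 protein, and others act in hormone response, wall formation and cell fate. The roles given for single members are those of the named gene in the model plant of its annotation, and are background, not results for yew.

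The label R2R3-type was not borne out by every annotation. The rule also took in 3 unigenes named CPC, a protein with the R3 repeat alone in Arabidopsis, 2 named MYB3R-1, which has an extra repeat, 4 named CDC5, a splicing and cell cycle protein, and 2 named TRB1 and 1 named At1g17520, which are telomere repeat-binding proteins. These are kept as members by the rule and are described under cell fate (CPC) and under cell cycle, splicing and telomere names. No member was placed in a KEGG pathway, and 59 had GO terms, among them response to salicylic acid in 20 and response to jasmonic acid in 16. Member unigenes had a median length of 796 bp, against 509 bp for all unigenes, and 10 had an effective length (the length on which a read can start) under 100 bp, at which TPM values rest on few reads. Whether unigenes of the same name are separate genes, species-specific copies or fragments of a gene was not analysed here, and reads may have been split between near-identical copies.

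Levels below are TPM, a transcript level scaled by length and library, and fold changes and adjusted p are from edgeR's quasi-likelihood test on the counts of 8 libraries, with 3 libraries each of T. media and T. cuspidata and 2 of T. mairei. A unigene was called where it changed by more than 1 on the log2 scale at an adjusted p under 0.05. The 3 comparisons share libraries, so their values are set side by side and are not independent.

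Some facts of the libraries bear on the levels. Count totals ran from 32783199 to 44821323 per library. Within a species, libraries correlated at 0.874 to 0.966 over all unigenes on log2(TPM + 1), lowest within T. cuspidata, where replicate 1 stood apart for some genes: a wood marker, CCR1 (comp26102_c0), was at 116.9 TPM there and at 0 and 0.13 in the others. Very short unigenes took a larger part of TPM in T. mairei. Those of an effective length under 100 bp took 25.1 to 25.7% of all TPM in T. mairei, 12.5 to 14.6% in T. media and 10.7 to 11.1% in T. cuspidata, and on the TPM scale the median unigene was 0.61 (log2) higher in T. media than in T. mairei, against 0.02 in edgeR. Directions involving T. mairei are therefore given from edgeR. The markers of the labelled tissues also differed in level between species. The 79 unigenes of photosynthesis (needle markers) summed to 29216.5 to 54609.8 TPM in T. media, against 65594.2 to 79450.7 in T. cuspidata and 4601.5 to 7919.6 in T. mairei. In normalized counts (CPM) they summed to 24737.3 to 47831.7, 61980.6 to 76592.9 and 4722.1 to 6477.7, in the same order. Of the 79, 32 were at 0 in every T. cuspidata library, 23 in every T. mairei library and none in every T. media library. The 13 wood markers summed to 749.3 to 970.9, 632.2 to 660.1 and 585.5 to 646.7 TPM, and in CPM to 800.1 to 970.2, 813.4 to 859.5 and 1086.0 to 1168.8, which puts T. mairei lowest by TPM and highest by counts. Among them CESA4 was at 0 in 4 libraries and LAC17 at 0 in T. cuspidata. In such bulk samples fewer cells of a type and less RNA per cell cannot be told apart, and the part of tissue makeup in the MYB values was not tested.

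The shares of MYB unigenes called lay near those of all unigenes, somewhat above them in each comparison, a difference that was not tested. Comparing T. media with T. cuspidata, 14 of the 68 members tested were higher in T. media (15.7% of all 32624 tested unigenes were) while 8 were higher in T. cuspidata (10.1% of all). Together 22 members, or 32.4%, were called, beside 25.8% of all unigenes. Between T. media and T. mairei, 19 members were higher in T. media (20.8% of all unigenes) while 14 were higher in T. mairei (23.5%), so that 33 members, or 48.5%, were called beside 44.3% of all. Between T. mairei and T. cuspidata, 21 were higher in T. mairei (27.8% of all unigenes) while 18 were higher in T. cuspidata (21.5%), which makes 39 members, or 57.4%, beside 49.3%. Without the 12 members that are not R2R3-type by name, 56 were tested and 35.7, 55.4 and 64.3% of them were called, beside the same 25.8, 44.3 and 49.3% of all unigenes. The median log2 fold change of the members was 0.00, 0.25 and -0.20 in these comparisons, beside 0.04, 0.02 and 0.06 over all unigenes. Members at 0 counts stay on the same side of these medians at their lower bounds, so using the bounds could not move the medians. On log2(TPM + 1) with all 9 libraries, limma called 16 members higher in T. media against 5 higher in T. cuspidata (17.2 and 9.09% of all unigenes). It called 31 higher in T. media against 10 higher in T. mairei (33.9 and 18.1%), and 14 higher in T. mairei against 26 higher in T. cuspidata (21.9 and 31.5%). In that fit 26.2, 52.0 and 53.4% of all unigenes were called in either direction. With TPM divided by TMM factors first, a setting chosen after seeing the data, limma gave 14 and 7 (15.6 and 9.66% of all, 25.3% in either direction), 19 and 13 (20.4 and 23.9%, 44.3%), and 18 and 17 (27.8 and 21.0%, 48.8%). With the reads recovered for T. mairei replicate 3 added, edgeR gave 14 and 8 (15.6 and 10%, 25.6%), 22 and 13 (21.8 and 25.1%, 46.8%), and 20 and 20 (29.3 and 22.4%, 51.7%).

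**Figure D1:**
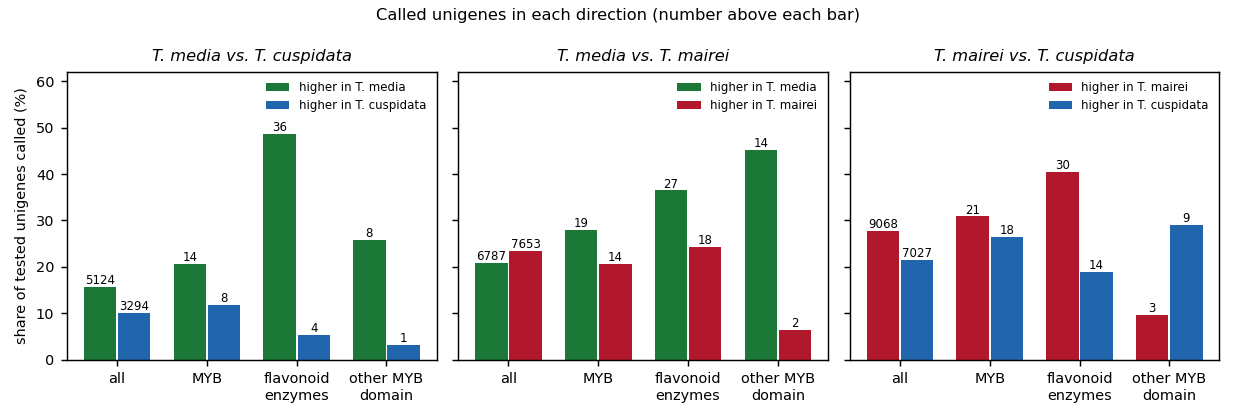
Share of tested unigenes called by edgeR in each direction (y axis, percent) for all unigenes, the MYB unigenes, phenylpropanoid and flavonoid enzymes and other MYB-domain unigenes, in each comparison, with the number called above each bar. The MYB bars (14 and 8, 19 and 14, 21 and 18 members) lie near those of all unigenes.

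Over the comparisons, 49 members were called at least once, 72.1% of those tested, beside 62.1% of all unigenes. Not called in any were 19, or 27.9%, beside 37.9% of all. Those called in all 3 comparisons were 6, or 8.82%, beside 9.32% of all unigenes. They were the MYB4 unigene comp14341_c0, the MYB44 unigene comp23077_c0, the MYB3 unigene comp24941_c0, the CPC unigene comp56547_c0, the MYB5 unigene comp6584_c0 and the MYB308 unigene comp8618_c0. Lower in T. mairei than in both other species were 13 members (19.1%, beside 13.6% of all unigenes). Higher in T. mairei than in both were 11 (16.2%, beside 19.8%). Lower in T. cuspidata than in both were 9 (13.2%, beside 8.48%). Higher there than in both were 2 (2.94%, beside 6.25%), the MYB5 unigenes comp6115_c0 and comp6584_c0. Higher in T. media than in both were 6 (8.82%, beside 6.4%), and 4 were lower there than in both (5.88%, beside 2.87%). As a description over 69 unigenes, libraries of a species correlated at 0.834 to 0.962 on log2(TPM + 1). Those of T. media and T. cuspidata correlated at 0.565 to 0.647, those of T. cuspidata and T. mairei at 0.352 to 0.453. Those of T. media and T. mairei correlated at 0.217 to 0.37. Correlations between species were not computed over all unigenes, so these values cannot be read as particular to MYB unigenes. They are also on the unscaled TPM, which is shifted for T. mairei.

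**Figure D2:**
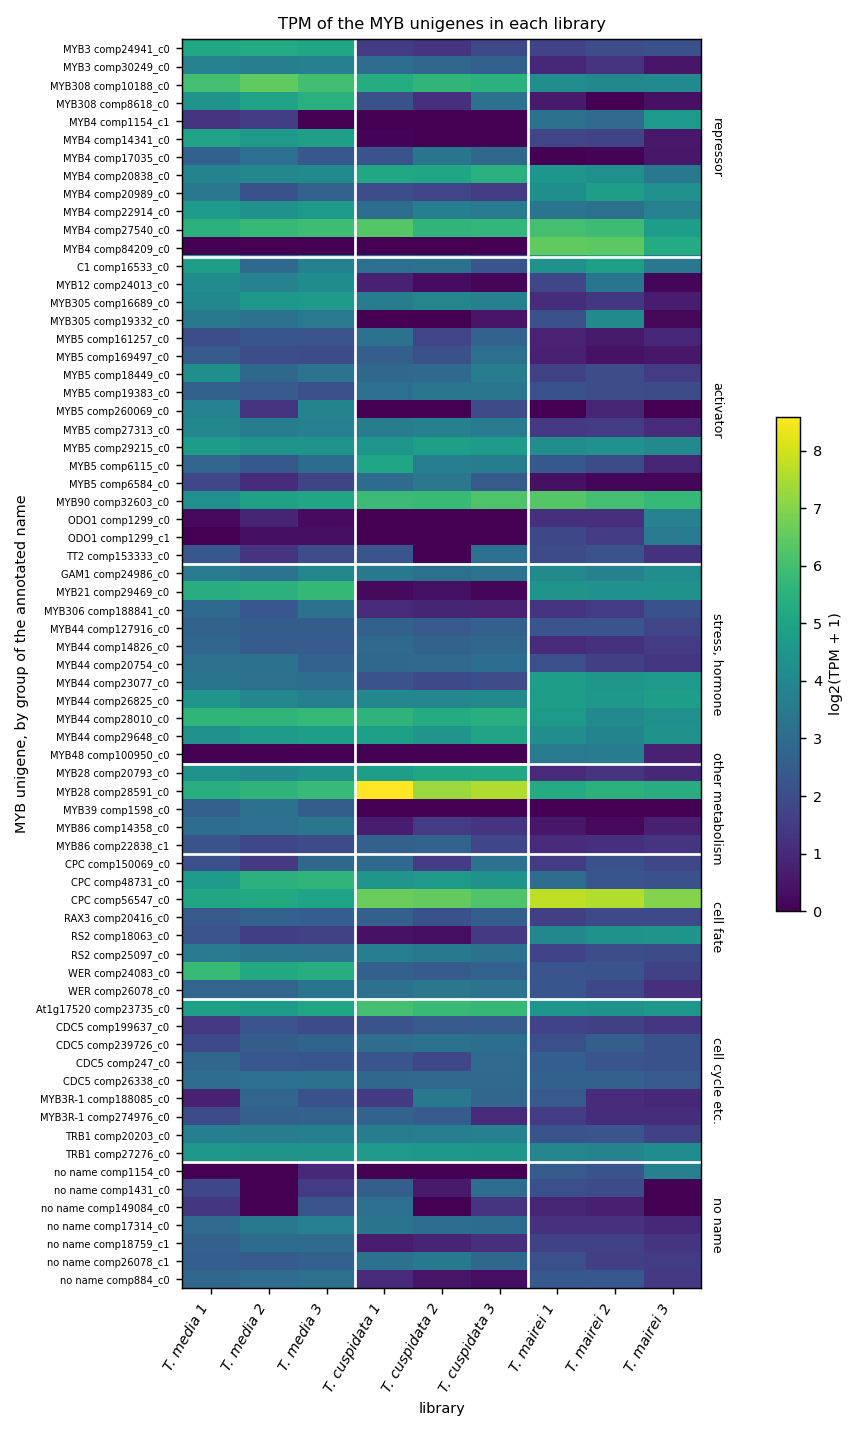
TPM of the 69 MYB unigenes (rows, grouped by the role of the annotated name) in the 9 libraries (columns), coloured by log2(TPM + 1). The brightest cells are the MYB28 unigene comp28591_c0 in T. cuspidata, up to 383.92 TPM, and the CPC unigene comp56547_c0 in T. mairei, up to 215.53 TPM, and some rows are dark in a whole species, such as MYB39 outside T. media.

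The summed TPM of all 69 members was 941.64 to 1026.91 in T. media, against 908.41 to 1216.18 in T. cuspidata and 683.89 to 908.28 in T. mairei, which overlap between T. media and T. cuspidata. In normalized counts (CPM) the means of the sum were 868, 875 and 1040, so T. mairei was the lowest by TPM and the highest by counts. A mean of at least 10 TPM in a species was reached by 35 members and one of at least 50 TPM by 7. By mean TPM, 28 of the 68 tested members were highest in T. media, 26 were highest in T. cuspidata and 14 in T. mairei, beside 38.6, 34.4 and 27% of all tested unigenes. By normalized counts, the numbers were 22, 24 and 22, beside 28.1, 31.5 and 40.5% of all. T. media lay between the other species in 27 members, or 39.7%, by normalized counts, beside 45.6% of all unigenes, and in 35, or 51.5%, by TPM, beside 44.2% of all. The order of the species thus depends on the scale.

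**Figure D3:**
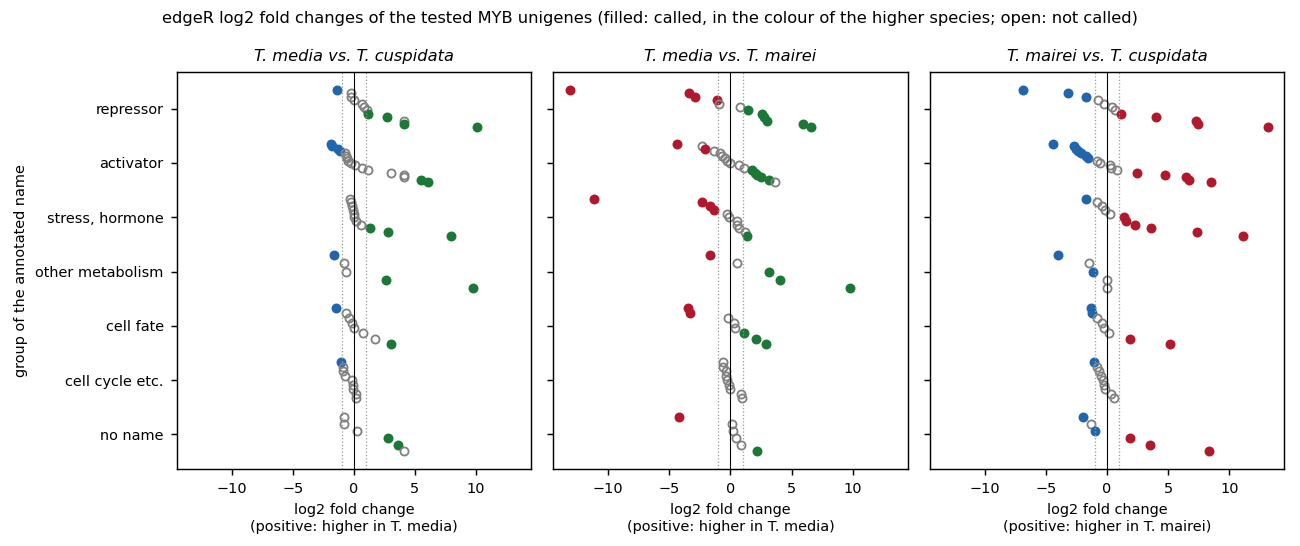
edgeR log2 fold change (x axis) of each of the 68 tested MYB unigenes in the 3 comparisons, by group of the annotated name (y axis). Filled points passed the test and take the colour of the higher species, open points did not, and dotted lines mark a change of 1. Points of unigenes with 0 counts in a species depend on the prior count and are no estimate of the fold. Most repressor-type points are filled between T. media and T. mairei (10 of 12), and none of the 9 of the cell cycle group is. Of all unigenes, 44.3% were called in that comparison.

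Repressor-type MYB unigenes were called in 41.7, 83.3 and 66.7% of tests in T. media against T. cuspidata, T. media against T. mairei, and T. mairei against T. cuspidata, beside 25.8, 44.3 and 49.3% of all unigenes. This group holds MYB4 and MYB3, which in Arabidopsis repress phenylpropanoid genes, and MYB308, a snapdragon repressor of phenolic and lignin synthesis. Of its 12 members, 4 were higher in T. media and 1 in T. cuspidata when these were compared. Against T. mairei, T. media was higher in 6 and lower in 4, and T. mairei was higher than T. cuspidata in 5 and lower in 3. The calls went in both directions in each comparison, so the group did not move as a whole. For this and the groups below, the shares of all unigenes by direction are those given above with all members.

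MYB4 had 8 unigenes, the second most of any name after MYB5. In 6 of them the GO terms were those of Arabidopsis MYB4 (negative regulation of transcription, response to UV-B, jasmonic and salicylic acid), and comp1154_c1 and comp20989_c0 carried response to stress in their place. Summed over the 8, TPM was 130.75, 125.81 and 138.58 in T. media, against 127.76, 104.06 and 112.57 in T. cuspidata and 214.51, 205.73 and 132.86 in T. mairei. The sums of T. media and T. cuspidata overlap, and those of T. mairei overlap those of T. media only through replicate 3. The unigenes that make up these sums differed by species.

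The unigene comp14341_c0 marked T. media. It was at 29.78, 24.31 and 28.46 TPM in T. media, at 0.07, 0 and 0 in T. cuspidata and at 2.45, 2.41 and 0.51 in T. mairei. All T. media libraries lay above all others, and those of T. mairei lay above those of T. cuspidata. With 3755 reads in T. media and 3 in T. cuspidata, the ratio was 1240-fold, with a counting interval of 424 to 6020 (95%, exact, for counting error only). T. media exceeded T. mairei by 2.77 ± 0.45 (log2, SE, edgeR adjusted p = 0.0012), or 6.83-fold, and T. mairei exceeded T. cuspidata by 7.31 ± 0.62 (adjusted p = 3.9e-05).

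The unigene comp84209_c0 was seen in T. mairei. Its TPM was 89.86, 84.4 and 38.06 there and 0 in all 6 other libraries. Against a floor of 3 counts over a species, T. mairei, with 2163 reads in the 2 libraries with counts, was at least 1130-fold higher than T. media and at least 1120-fold higher than T. cuspidata (edgeR adjusted p = 0.00014 and 0.0001). Replicate 3, which is not among those 2 libraries, had the lowest T. mairei level. This unigene is 355 bp long, so it may hold only part of a transcript.

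The converse pattern was that of comp17035_c0. It was at 5.35, 7.74 and 4.06 TPM in T. media, at 3.72, 9.08 and 6.35 in T. cuspidata and at 0, 0.07 and 0.48 in T. mairei. The first-named species overlap and T. mairei lies below both. From 338 and 414 reads against 2, T. media was 108-fold (29.5 to 891) and T. cuspidata 133-fold (36.6 to 1100) above T. mairei, with 95% counting intervals, and edgeR adjusted p was 0.00054 and 0.00036. With the 14 reads recovered from the RPKM of replicate 3 added, the log2 fold changes shrank from 6.59 to 4.23 and from -6.84 to -4.50.

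Both stress-annotated MYB4 unigenes were higher in T. mairei. The unigene comp20989_c0 was at 18.19, 26.35 and 19.16 TPM in T. mairei, at 9.78, 3.49 and 5.57 in T. media and at 3.13, 2.49 and 1.85 in T. cuspidata. No T. mairei library overlapped the other species, and T. mairei exceeded T. media 7.42-fold (edgeR adjusted p = 0.0021) and T. cuspidata 15.9-fold (adjusted p = 0.00043). The short unigene comp1154_c1, of 221 bp, was at 8.15, 7.09 and 24.47 TPM in T. mairei, at 1.49, 1.98 and 0 in T. media and at 0 in T. cuspidata. T. mairei was at least 21.8-fold above T. cuspidata (adjusted p = 0.0055). Its call against T. media (-3.37 ± 1.00, adjusted p = 0.031) was lost without T. media replicate 1 (-3.59, adjusted p = 0.066) or 2 (-3.90, 0.056) and without T. mairei replicate 1 (-3.28, 0.16) or 2 (-3.46, 0.13).

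The remaining MYB4 unigenes were expressed in every library. The unigene comp20838_c0 was at 13.6, 14.77 and 16.24 TPM in T. media, at 33.66, 32.77 and 43.27 in T. cuspidata and at 21.68, 18.65 and 10.14 in T. mairei. T. cuspidata lay above T. media without overlap (-1.38 ± 0.17, edgeR adjusted p = 0.00056). Against T. mairei, T. media was lower by edgeR (-1.14 ± 0.18, adjusted p = 0.0011), but TPM overlap through replicate 3 of T. mairei, and with its recovered reads the difference was -0.89 and not called. The unigene comp22914_c0 was at 25.44, 20.08 and 24.08 TPM in T. media, at 7.63, 12.04 and 10.52 in T. cuspidata and at 8.94, 7.99 and 12.87 in T. mairei. It was 2.17-fold higher in T. media than in T. cuspidata (adjusted p = 0.0036), a call that was lost without T. cuspidata replicate 1, at a log2 fold change of 0.93. The unigene comp27540_c0, which had the highest mean TPM of the MYB4 unigenes in T. media and in T. cuspidata, was not called in any comparison, and its TPM was 45.31, 53.44 and 60.17 in T. media, against 79.55, 47.68 and 50.58 in T. cuspidata and 65.24, 58.77 and 27.17 in T. mairei. These libraries overlap between all species.

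**Figure D4:**
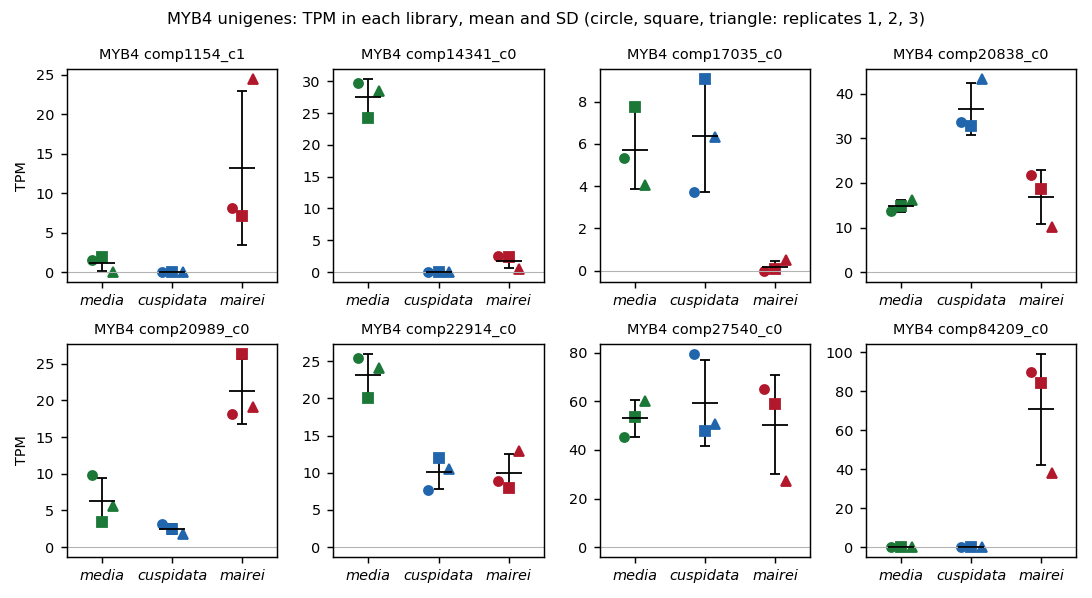
TPM (y axis) of the 8 MYB4 unigenes in each of the 9 libraries, by species (x axis). Circles, squares and triangles are replicates 1, 2 and 3, and bars give mean and SD. The unigene comp14341_c0 lies at 24.31 to 29.78 in T. media, comp84209_c0 is above 0 only in T. mairei, and comp27540_c0 overlaps between species.

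MYB3 was highest in T. media. The unigene comp24941_c0 was at 33.38, 36.87 and 32.35 TPM in T. media, at 1.87, 1.52 and 2.71 in T. cuspidata and at 2.3, 3.04 and 3.42 in T. mairei. T. media lay 17.1-fold above T. cuspidata (edgeR adjusted p = 6.2e-05) and 7.89-fold above T. mairei (adjusted p = 0.00024), with no overlap. T. mairei and T. cuspidata overlap in TPM, and the call between them (1.11 ± 0.31, adjusted p = 0.015) was lost without T. cuspidata replicate 2 (0.85) or T. mairei replicate 2 (0.88). The other MYB3 unigene, comp30249_c0, was at 13, 11.69 and 12.32 TPM in T. media, at 7.36, 6.11 and 5.32 in T. cuspidata and at 0.99, 1.49 and 0.44 in T. mairei. The species do not overlap, and T. mairei was lower than T. media 6.02-fold (adjusted p = 5.7e-05) and than T. cuspidata 3.34-fold (adjusted p = 0.00025), while T. media and T. cuspidata differed by 0.85 ± 0.18 and were not called.

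MYB308 followed the same order in both unigenes, which are short. The unigene comp10188_c0, of 282 bp, was at 63.46, 88.57 and 62.2 TPM in T. media, at 38.72, 47.8 and 44.01 in T. cuspidata and at 17.71, 15.16 and 16.23 in T. mairei. Only T. media against T. mairei was called (1.42 ± 0.26, edgeR adjusted p = 0.0025), although TPM do not overlap between any of the species. The unigene comp8618_c0, of 235 bp, was at 20.61, 29.96 and 43.01 TPM in T. media, at 3.33, 1.21 and 8.34 in T. cuspidata and at 0.53, 0 and 0.3 in T. mairei. From 207 reads against 2, T. media was 65.8-fold above T. mairei (18 to 547, 95% counting interval, adjusted p = 0.0035). The T. mairei vs. T. cuspidata call rested on 2 and 31 reads (adjusted p = 0.049) and was lost without 7 of the 8 libraries in turn, at log2 fold changes of -2.22 to -6.36. That between T. media and T. cuspidata (2.75 ± 0.77, adjusted p = 0.024) was lost without T. media replicate 2 (2.79) or 3 (2.41) or T. cuspidata replicate 2 (2.29).

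Activator-type MYB unigenes numbered 17, and they were called at rates of 35.3, 41.2 and 70.6% in T. media against T. cuspidata, T. media against T. mairei, and T. mairei against T. cuspidata, beside 25.8, 44.3 and 49.3% of all unigenes. T. media was higher than T. cuspidata in 2 and lower in 4, and higher than T. mairei in 5 and lower in 2. T. mairei was higher than T. cuspidata in 5 and lower in 7. The group joins activators of flavonol, anthocyanin and tannin synthesis with 9 MYB5 and 2 ODO1 unigenes, whose roles are given below. The 9 MYB5 unigenes make up most of those lower in T. mairei.

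MYB12, which in Arabidopsis switches on flavonol synthesis, had 1 unigene, comp24013_c0. It was at 17.18, 13.04 and 17.08 TPM in T. media, at 0.73, 0.22 and 0.08 in T. cuspidata and at 2.58, 9.08 and 0.12 in T. mairei. T. media was 44.5-fold above T. cuspidata (edgeR adjusted p = 0.0012) and was not called against T. mairei (0.73 ± 0.70, adjusted p = 0.41). By TPM T. media lay above all T. mairei libraries, but by normalized counts they overlap. The T. mairei libraries were scattered, with replicate 3 among those of T. cuspidata by TPM. T. mairei was called higher than T. cuspidata (4.75 ± 0.78, adjusted p = 0.0012) from replicates 1 and 2, and with the reads of replicate 3 added the difference was 4.16. On log2(TPM + 1) with all 9 libraries it was 1.38 and not called.

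MYB305, named after a snapdragon activator of phenylpropanoid genes in flowers, had 2 unigenes. In comp16689_c0, TPM was 15.06, 22.67 and 23.93 in T. media, against 11.36, 13.87 and 12.45 in T. cuspidata and 1.16, 1.62 and 0.61 in T. mairei. No libraries of different species overlapped, and T. mairei was 9.13-fold below T. media (edgeR adjusted p = 0.00011) and 5.88-fold below T. cuspidata (adjusted p = 0.00022). The other, comp19332_c0, showed the scatter of MYB12 within T. mairei, at 3.33, 15.77 and 0.13 TPM, beside 10.06, 8.22 and 10.73 in T. media and 0, 0 and 0.38 in T. cuspidata. In both unigenes T. mairei replicate 2 was the highest and replicate 3 the lowest of its species, as in MYB12.

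The anthocyanin activators differed in another way. MYB90 (comp32603_c0), an Arabidopsis activator of anthocyanin synthesis, was at 18.96, 28.82 and 32.37 TPM in T. media, at 57.19, 53.69 and 73.32 in T. cuspidata and at 79.51, 64.28 and 53.52 in T. mairei. T. media lay below every library of the others, 2.43-fold below T. cuspidata (edgeR adjusted p = 0.0049) and 4.35-fold below T. mairei (adjusted p = 0.00037), and the latter species overlap. C1 (comp16533_c0), which in maize turns on anthocyanin genes with a bHLH partner, was at 27.28, 6.69 and 12.77 TPM in T. media, at 7.8, 8.29 and 3.94 in T. cuspidata and at 19.73, 28.21 and 10.06 in T. mairei. T. media overlaps both other species, and only T. mairei against T. cuspidata was called (2.47 ± 0.55, adjusted p = 0.0054).

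MYB5, which in Arabidopsis acts in seed coat mucilage and trichomes, had 9 unigenes. T. media was lower than T. cuspidata in 3 and higher in none, and higher than T. mairei in 4 and lower in none. T. mairei was lower than T. cuspidata in 6 and higher in none. Called in either direction were 33.3, 44.4 and 66.7% of the 9 in these comparisons, beside 25.8, 44.3 and 49.3% of all unigenes. The call of comp161257_c0 between T. media and T. mairei (1.74 ± 0.64, edgeR adjusted p = 0.048) was kept in 8 of 19 other settings. The 2 MYB5 unigenes with the most reads did not follow each other. The unigene comp27313_c0 was at 14.91, 11.61 and 12.44 TPM in T. media, at 11.25, 12.29 and 10.88 in T. cuspidata and at 1.68, 1.79 and 1.03 in T. mairei, with T. mairei 4.59-fold below T. media (edgeR adjusted p = 2.7e-05) and 4.3-fold below T. cuspidata (adjusted p = 2.2e-05). The unigene comp29215_c0 was not called in any comparison, with mean TPM of 22.4 ± 3.05, 25.1 ± 2.94 and 17.7 ± 1.99 (SD, n = 3) in T. media, T. cuspidata and T. mairei.

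Other MYB5 unigenes were lower or more scattered. The unigene comp18449_c0 was at 18.48, 6.55 and 8.73 TPM in T. media, at 6.48, 6.6 and 11.06 in T. cuspidata and at 2.19, 3.1 and 1.79 in T. mairei. T. mairei lay below both in TPM, but T. media vs. T. mairei was not called (1.13 ± 0.49, edgeR adjusted p = 0.082). The T. mairei call against T. cuspidata (-1.58 ± 0.50, edgeR adjusted p = 0.025) was lost without T. cuspidata replicate 3 (-1.26) or T. mairei replicate 1 (-1.29) or 2 (-1.91). The unigene comp6115_c0 was at 32.95, 11.82 and 11.47 TPM in T. cuspidata, at 6.04, 4.1 and 7.28 in T. media and at 4.14, 3.01 and 0.88 in T. mairei. T. cuspidata lay above both without overlap, with replicate 1 far above replicates 2 and 3. Without that replicate neither call stood (-1.11 in each, edgeR adjusted p = 0.055 against T. media and 0.057 against T. mairei). The T. media call was also lost without T. media replicate 1 (-1.75, adjusted p = 0.068) or 2 (-1.56, 0.08), and the T. mairei call without T. mairei replicate 1 (-1.98, 0.088) or 2 (-1.55, 0.15). Summed over the name, MYB5 was at 75.4 ± 18.6, 91.1 ± 9.08 and 29.2 ± 4.68 TPM (SD, n = 3) in T. media, T. cuspidata and T. mairei. The sum of normalized counts (CPM), which weights long unigenes more, was 75.8, 96.9 and 67.3, so the gap of T. mairei was narrower on that scale.

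ODO1, in petunia an activator of benzenoid scent compounds, had a pair of short unigenes from the same assembled component, both below 10 TPM on average. In comp1299_c1, TPM was 2.65, 1.81 and 10.82 in T. mairei, 0, 0.28 and 0.24 in T. media and 0 in T. cuspidata. T. mairei was at least 46.2-fold above T. cuspidata (edgeR adjusted p = 0.0033), with replicate 3 the highest.

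Stress and hormone type MYB unigenes numbered 11. T. media was higher than T. cuspidata in 3 and lower in none, and higher than T. mairei in 1 and lower in 4. T. mairei was higher than T. cuspidata in 6 and lower in 1. Called in either direction were 27.3, 45.5 and 63.6% of the group, beside 25.8, 44.3 and 49.3% of all unigenes. MYB44 makes up 7 of them, and MYB21, MYB48, MYB306 and GAM1 had 1 each.

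MYB44, an Arabidopsis factor of abscisic acid signalling and stress tolerance, had 7 unigenes, of which 4 were not called in any comparison. Of all unigenes, 37.9% were not called in any. By comparison, 14.3, 42.9 and 42.9% of the 7 were called, beside 25.8, 44.3 and 49.3% of all. Summed over its 7 unigenes, TPM was 117.07, 111.78 and 113.43 in T. media, against 111.84, 92.88 and 111.2 in T. cuspidata and 105.68, 81.49 and 95.13 in T. mairei. T. cuspidata overlapped both others. In normalized counts (CPM) the means of the sum were 181, 171 and 259, so that T. mairei was the lowest by TPM and the highest by counts. The direction of T. mairei for the summed name thus depends on the scale.

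A single MYB44 unigene, comp23077_c0, was called in all 3 comparisons. It was at 9.15, 8.1 and 7.38 TPM in T. media, at 3.62, 2.8 and 3.09 in T. cuspidata and at 27.31, 22.17 and 24.29 in T. mairei. No species overlap, and the order was T. mairei, T. media, T. cuspidata. T. mairei was 4.91-fold above T. media (edgeR adjusted p = 1.7e-05) and 12-fold above T. cuspidata (adjusted p = 2.1e-06), and T. media was 2.45-fold above T. cuspidata (adjusted p = 0.00034), in every alternative fit run.

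The unigenes comp26825_c0 and comp14826_c0 separated T. mairei in opposite directions. The first was at 27.1, 22.68 and 26.33 TPM in T. mairei, at 21.27, 14.58 and 12.18 in T. media and at 14.78, 14.87 and 15.36 in T. cuspidata. T. mairei lay above both, 2.54-fold and 2.55-fold (edgeR adjusted p = 0.00086 and 0.0007). On log2(TPM + 1) neither call stood, at -0.66 for T. media against T. mairei and 0.72 for T. mairei against T. cuspidata. The second was at 6.03, 4.59 and 4.72 TPM in T. media, at 6.68, 5.6 and 6.08 in T. cuspidata and at 1.1, 1.34 and 1.89 in T. mairei. T. mairei lay below both, by 1.36 ± 0.34 (log2, adjusted p = 0.011) against T. media and 3.25-fold against T. cuspidata (adjusted p = 0.0035), and the former call was lost without T. mairei replicate 1 (1.21, adjusted p = 0.084).

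The other 4 MYB44 unigenes were not called in any comparison by edgeR. The unigene comp28010_c0, which had the highest mean TPM of the name in T. media and in T. cuspidata, was at 47.92, 47.66 and 52.49 TPM in T. media, at 47.1, 37.52 and 42.21 in T. cuspidata and at 24.87, 15.77 and 18.74 in T. mairei. T. mairei lies below the others in TPM, but in edgeR it was lower than T. media by 0.57 ± 0.20 only. The unigene comp29648_c0 was at 19.05, 23.59 and 26.34 TPM in T. media, at 27.94, 21.06 and 31.55 in T. cuspidata and at 18.12, 13.67 and 19.78 in T. mairei, which overlaps T. media. Lower levels were found in comp20754_c0, at 7.93, 8.53 and 5.49 TPM in T. media, at 6.38, 6.81 and 7.66 in T. cuspidata and at 3.32, 2.06 and 1.59 in T. mairei. The unigene comp127916_c0 had log2 fold changes of -0.04 ± 0.23, -0.29 ± 0.26 and 0.25 ± 0.26 in T. media against T. cuspidata, T. media against T. mairei, and T. mairei against T. cuspidata. Its TPM was 5.72, 4.73 and 4.83 in T. media, against 5.34, 4.22 and 5.25 in T. cuspidata and 3.86, 3.8 and 2.51 in T. mairei.

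**Figure D5:**
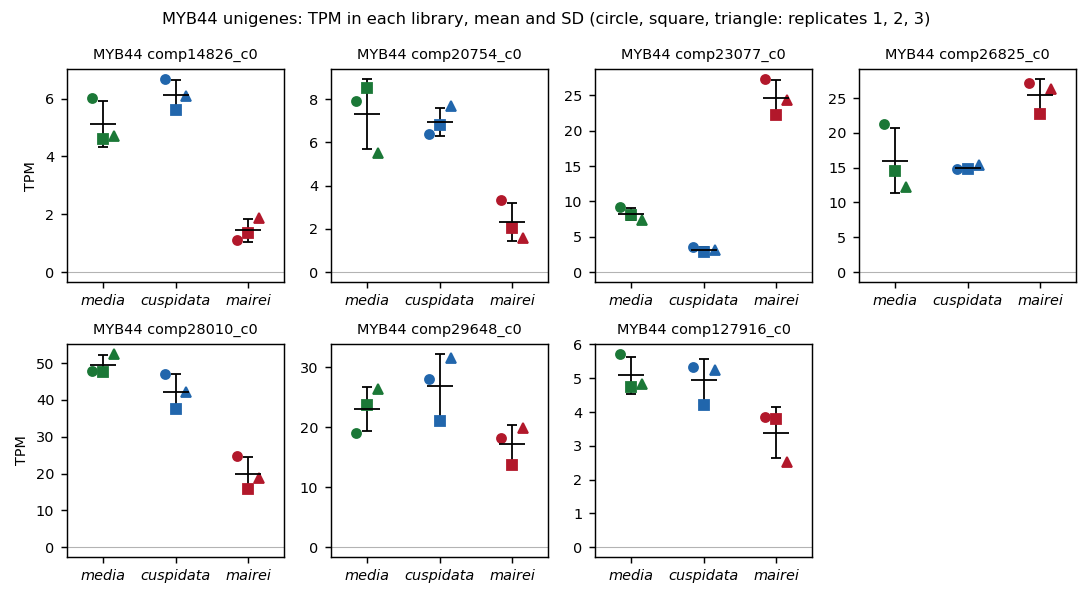
TPM (y axis) of the 7 MYB44 unigenes in each library of the 3 species (x axis), with circles, squares and triangles for replicates 1, 2 and 3 and bars for mean and SD. The unigene comp23077_c0 separates all species, at 22.17 to 27.31 in T. mairei and 2.8 to 3.62 in T. cuspidata, and comp14826_c0 lies at 1.1 to 1.89 in T. mairei, below both others.

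MYB21, an Arabidopsis factor of jasmonate signalling in stamens, was nearly silent in T. cuspidata. Its unigene comp29469_c0 was at 40.18, 45.1 and 51.36 TPM in T. media, at 0.15, 0.32 and 0.08 in T. cuspidata and at 20.7, 19.29 and 19.97 in T. mairei. The species do not overlap in TPM. T. media was 241-fold (edgeR adjusted p = 1.6e-05) and T. mairei 168-fold (adjusted p = 7.1e-06) above T. cuspidata, from 26 reads in the 3 T. cuspidata libraries, and T. media and T. mairei differed by 0.52 ± 0.34 and were not called in edgeR. On log2(TPM + 1) they differed by 1.14 and were called.

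GAM1, the rice GAMYB factor of gibberellin response, was higher in T. mairei in edgeR. The unigene comp24986_c0 had 1238 and 900 reads in T. mairei, 411, 303 and 346 in T. media and 185, 297 and 217 in T. cuspidata. It was 3.15-fold above T. media and 4.76-fold above T. cuspidata (edgeR adjusted p = 0.00023 and 3.9e-05). Its TPM was 15.68, 12.82 and 17.59 in T. mairei, 10.99, 8.55 and 14.27 in T. media and 10.17, 8.02 and 8.76 in T. cuspidata, so T. mairei overlaps T. media on that scale, and on log2(TPM + 1) neither call stood. MYB48 (comp100950_c0), below 10 TPM on average, was at 10.31, 11.57 and 0.73 TPM in T. mairei and at 0 in the 6 other libraries. It was at least 285-fold above T. media (edgeR adjusted p = 0.00061), with T. mairei replicate 3 far below the other replicates.

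The group of other metabolism and wall names held 5 unigenes, with MYB28 the most abundant. MYB28 in Arabidopsis activates the synthesis of aliphatic glucosinolates, compounds of the cabbage order. Its unigene comp20793_c0 was at 20.25, 15.99 and 19.67 TPM in T. media, at 26.95, 33.16 and 34.43 in T. cuspidata and at 1.05, 1.5 and 0.98 in T. mairei. The species do not overlap, and T. mairei was 8.98-fold below T. media (edgeR adjusted p = 2.9e-05) and 16.1-fold below T. cuspidata (adjusted p = 8.2e-06).

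The unigene comp28591_c0 had the highest MYB level in the series and gave different orders on different scales. It was at 40.9, 47.46 and 54.03 TPM in T. media, at 383.92, 157.25 and 189.48 in T. cuspidata and at 38.36, 44.5 and 39.54 in T. mairei. By TPM T. cuspidata stood above both, with replicate 1 the highest, and T. media overlapped T. mairei. By counts, with 1307, 1082 and 1590 reads in T. media, 5425, 3081 and 3665 in T. cuspidata and 3884 and 4047 in T. mairei, T. media was lower than T. cuspidata (-1.64 ± 0.28, edgeR adjusted p = 0.003) and than T. mairei (-1.64 ± 0.30, adjusted p = 0.0024), and T. mairei and T. cuspidata differed by 0.00 ± 0.31. This unigene joins 82 transcripts, and a TPM unit stood for 90.9 to 101 reads in T. mairei, 22.8 to 32 in T. media and 14.1 to 19.6 in T. cuspidata. Only the T. media vs. T. cuspidata direction held on every scale run.

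MYB39, an Arabidopsis factor of suberin deposition, was seen in T. media. Its unigene comp1598_c0, below 10 TPM, was at 5.23, 8.16 and 4.81 TPM there and at 0 in all 6 other libraries. From 324 reads it was at least 107-fold above T. cuspidata and at least 68.7-fold above T. mairei (edgeR adjusted p = 0.00097 and 0.00099). Of the MYB86 pair, comp14358_c0 was higher in T. media than in both others (2.59 ± 0.51 and 4.04 ± 0.65, adjusted p = 0.0053 and 0.0012), at a mean of 8.15 ± 0.992 TPM (SD, n = 3).

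Cell fate names held 8 unigenes, and those of the same name did not follow each other. WER, which in Arabidopsis sets the hairless fate of root epidermis, had 2 unigenes. In comp24083_c0, TPM was 53.87, 36.21 and 39.46 in T. media, against 5.19, 4.48 and 5.5 in T. cuspidata and 3.77, 3.59 and 2.24 in T. mairei. T. media lay 8.38-fold above T. cuspidata (edgeR adjusted p = 3.2e-05) and 7.42-fold above T. mairei (adjusted p = 4.3e-05), with no overlap. The other WER unigene, comp26078_c0, was not called, at means of 6.99 ± 1.75, 8.85 ± 0.724 and 2.61 ± 1.32 TPM (SD, n = 3).

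RS2, the maize ROUGH SHEATH2 factor of leaf development, had unigenes that separated T. mairei in opposite directions. The unigene comp18063_c0 was at 15.05, 20.39 and 20.8 TPM in T. mairei, at 3.75, 2.01 and 2.23 in T. media and at 0.34, 0.24 and 1.68 in T. cuspidata. T. mairei was 10.9-fold above T. media (edgeR adjusted p = 0.0044) and 35.2-fold above T. cuspidata (adjusted p = 0.00073). The unigene comp25097_c0 was at 2.32, 3.14 and 2.96 TPM in T. mairei, at 10.96, 8.86 and 8.69 in T. media and at 11.64, 10.03 and 8.5 in T. cuspidata. T. mairei was lower here, 2.39-fold against T. cuspidata (adjusted p = 0.00087) and 2.13-fold against T. media (adjusted p = 0.002), and the latter call was lost without T. mairei replicate 1, at 0.88.

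CPC, the Arabidopsis CAPRICE protein that opposes WER, showed the same split. The unigene comp56547_c0, of 283 bp, was at 33.22, 36.02 and 30.9 TPM in T. media, at 97.2, 90.49 and 73.03 in T. cuspidata and at 215.53, 193.56 and 125.88 in T. mairei. The species do not overlap, and T. mairei was 9.96-fold above T. media (edgeR adjusted p = 6.1e-06) and 3.63-fold above T. cuspidata (adjusted p = 4.5e-05), and T. cuspidata was 2.75-fold above T. media (adjusted p = 0.00029). The unigene comp48731_c0 ran the other way, at 24.46, 43.78 and 48.41 TPM in T. media, at 21.47, 24.23 and 20.14 in T. cuspidata and at 7.4, 3.89 and 3.49 in T. mairei. T. mairei was 4.25-fold below T. media (adjusted p = 0.0039) and 2.53-fold below T. cuspidata (adjusted p = 0.023), and the latter call was lost without T. cuspidata replicate 2 (-1.27, adjusted p = 0.052) or T. mairei replicate 2 (-0.95, adjusted p = 0.15). The third, comp150069_c0, was not called, at 1.68 to 8.19 TPM over the 9 libraries.

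The 9 unigenes named for cell cycle, splicing or telomere proteins had 1 call between T. media and T. cuspidata and 1 between T. mairei and T. cuspidata, or 11.1% each. None was called between T. media and T. mairei, beside 44.3% of all unigenes. The 11.1% stand beside 25.8% of all in T. media vs. T. cuspidata and 49.3% in T. mairei vs. T. cuspidata. Higher in T. cuspidata than in T. media was At1g17520 (comp23735_c0), a telomere repeat-binding protein, at 63.98, 53.67 and 51.93 TPM beside 27.62, 25.42 and 32.68 in T. media and, with no call between these species (edgeR -0.25 ± 0.15), 21.79, 20.21 and 23.03 in T. mairei. Its T. cuspidata libraries lay above all others in TPM, but T. mairei vs. T. cuspidata was not called in edgeR (-0.81 ± 0.16). The T. media vs. T. cuspidata call (-1.06 ± 0.14, edgeR adjusted p = 0.00082) was lost without T. media replicate 2 (-0.98) or T. cuspidata replicate 1 (-0.99). It was also lost with library sizes only (-0.86) and by limma on log2(TPM + 1) (-0.96). In each of these the change fell under 1. TRB1 comp20203_c0 was at 11.97, 11.43 and 12.17 TPM in T. media, at 11.5, 11.78 and 12.39 in T. cuspidata and at 3.65, 3.76 and 2.23 in T. mairei. Levels in T. media and T. cuspidata overlap. T. mairei lies below both, and it was called against T. cuspidata (-1.07 ± 0.14, adjusted p = 0.00035), while T. media exceeded it by 0.98 ± 0.14, short of the threshold of 1. The 4 CDC5 and both MYB3R-1 unigenes were not called in any comparison.

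Members without a gene name numbered 7, of which 6 were tested. Lower in T. cuspidata than in both others were comp18759_c1, with mean TPM of 6.47 ± 1.13, 0.877 ± 0.327 and 1.94 ± 0.399 (SD, n = 3) in T. media, T. cuspidata and T. mairei, and comp884_c0, with 7.15 ± 0.964, 0.573 ± 0.435 and 3.31 ± 1.42. The unigene comp17314_c0 was lower in T. mairei, at 1.21 ± 0.211 TPM beside 9.84 ± 2.7 in T. media (edgeR adjusted p = 0.00082).

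By GO term, the 16 members with response to jasmonic acid were called in 31.2, 56.2 and 50% of tests, and the 20 with response to salicylic acid in 30, 60 and 55%, beside 25.8, 44.3 and 49.3% of all unigenes. Of the former, T. media was higher than T. cuspidata in 3 and lower in 2, and higher than T. mairei in 4 and lower in 5, while T. mairei was higher than T. cuspidata in 5 and lower in 3. The salicylic acid members gave 4 and 2, 6 and 6, and 7 and 4 in the same order.

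The genes that MYB proteins of the activator and repressor types are known to act on were counted in the same way. Of 77 unigenes annotated as phenylpropanoid and flavonoid enzymes, 74 were tested. For T. media against T. cuspidata, 36 enzyme unigenes were higher in T. media and 4 in T. cuspidata, with a median log2 fold change of 1.28, beside 0.00 for the MYB members and 0.04 for all unigenes. Between T. media and T. mairei 27 were higher in T. media and 18 in T. mairei, and between T. mairei and T. cuspidata 30 were higher in T. mairei and 14 in T. cuspidata. Of all unigenes, 15.7 and 10.1%, 20.8 and 23.5%, and 27.8 and 21.5% were called in these directions. Called in either direction were 54.1, 60.8 and 59.5% of the enzymes, beside 25.8, 44.3 and 49.3% of all unigenes. Against T. cuspidata, T. media was higher in 10 of 17 tested unigenes of flavonoid 3'-monooxygenase, which adds a hydroxyl group to flavonoids, in 5 of 7 of chalcone synthase, the entry enzyme of the flavonoid route, and in 5 of 9 of flavonol synthase. None was lower in T. media for the first of these names or for chalcone synthase, and 1 was for flavonol synthase. Trans-cinnamate 4-monooxygenase was higher in T. media in 4 of 6 and lower in none, with a median log2 fold change of 3.22. Naringenin 3-dioxygenase was higher there in 3 of 6 and leucoanthocyanidin dioxygenase in 2 of 6, with none lower. The remaining enzymes had few calls or calls both ways. Phenylalanine ammonia-lyase, the first enzyme of the phenylpropanoid route, had 6 unigenes higher and 3 lower in T. media of 14. Of 4-coumarate--CoA ligase 1 of 6 was higher, with a median log2 fold change of -0.42, and neither the 2 unigenes of anthocyanidin reductase nor the 1 of chalcone isomerase were called. Against T. mairei, trans-cinnamate 4-monooxygenase was lower in T. media in 4 of 6 and higher in 1, with a median log2 fold change of -3.34. T. mairei was higher than T. cuspidata in 4 of 6 and lower in none (median 5.53). For flavonoid 3'-monooxygenase, T. media was higher than T. mairei in 7 of 17 and lower in 4. T. mairei was higher than T. cuspidata in 10 of these and lower in 2. The enzyme list was chosen with earlier results of these data known.

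The partners of R2R3 proteins were represented by 3 unigenes. LC (comp341_c0), a maize bHLH factor of anthocyanin synthesis, was at 5.95, 6.93 and 7.61 TPM in T. media, at 0.35, 0.19 and 0.64 in T. cuspidata and at 0.11, 0.1 and 0.04 in T. mairei, and T. media was higher than both (4.01 and 5.28 on the log2 scale, edgeR adjusted p = 0.00045 and 0.00022). TTG1 (comp23324_c0), the Arabidopsis WD40 protein, was at 65.23, 54.01 and 76.29 TPM in T. mairei, at 14.56, 0 and 2.41 in T. media and at 4.51, 0.58 and 2.03 in T. cuspidata, and T. mairei was higher than both (adjusted p = 0.018 and 0.0068). TT8 (comp29517_c0), the Arabidopsis bHLH partner, was not called in any comparison, at 9.49 to 32.21 TPM.

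Other MYB-domain unigenes that the rule leaves out, such as PHL1, DIVARICATA, APL, LHY and CCA1, numbered 32, of which 31 were tested. Between T. media and T. cuspidata 8 were higher in T. media and 1 in T. cuspidata, between T. media and T. mairei 14 and 2, and between T. mairei and T. cuspidata 3 and 9. Of all unigenes, 15.7 and 10.1%, 20.8 and 23.5%, and 27.8 and 21.5% were called in these directions. Called in either direction were 29, 51.6 and 38.7% of the other MYB-domain unigenes, beside 25.8, 44.3 and 49.3% of all unigenes. Their summed TPM was 692.71 to 703.86 in T. media, against 360.18 to 401.68 in T. cuspidata and 243.26 to 270.62 in T. mairei, which do not overlap, whereas the sums of the 69 members overlap between T. media and T. cuspidata. In normalized counts (CPM) the means of these sums were 1530, 731 and 641, in the same order.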

How the data were processed

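Reads of all libraries were co-assembled by the authors into unigenes with Trinity; the aligner, the counter and their versions are not given in the sources used here. The authors deposited expected counts per unigene, estimated from the reads assigned to it, for 8 libraries. Next to these they deposited TPM, which are scaled by effective length and depth. The last library, T. mairei replicate 3, was deposited as TPM and RPKM. Lengths and effective lengths are identical in all 9 tables. Columns of one library each were used.

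Expected counts were rounded and fitted in edgeR 4.0.16 (R 4.3.3; TMM factors, filterByExpr by species, quasi-likelihood test with Benjamini-Hochberg adjustment over 32624 unigenes), with 1 mean per species and no covariate. Reads of the library without counts were recovered from the deposited RPKM as an alternative: 97.7% of 3397 low values came out within 0.1 of a whole read. Levels are the deposited TPM, with no test; sums over a name and their SD use n = 3. limma 3.58.1 on log2(TPM + 1), which understates changes of low genes, required a mean TPM of 1, and DESeq2 1.42.0 gave the Wald test. The common biological coefficient of variation was 0.37, and on simulated counts of the T. media vs. T. cuspidata comparison, over 32096 genes, the test called 4.23, 61.3 and 95.5% of changes of 1, 2 and 3 on the log2 scale. A change of 1 lies at the threshold of a call. The simulation gave every gene that same variation and changed no genes of the lowest counts, so these rates do not describe each member.

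Members with a mean of at least 10 TPM in a species that were called in a comparison, and every MYB4 and MYB44 unigene, are given with the values of each library, 37 in all; others are named only where they make up a count of 5 or fewer, or were singled out after their values were seen. The members, role groups and gene lists were chosen with earlier results of these data known. Counting intervals are exact, at 95%, and cover counting error only. The log2 fold change of a unigene at 0 in a species depends on the prior count, so a bound against 3 counts summed over that species is given.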

Additional observations from a re-analysis of the deposited data

How the results depend on the processing

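The counts of called MYB unigenes stayed within 1.5 times in all 20 other settings: 19 to 24 in T. media vs. T. cuspidata, 27 to 43 in T. media vs. T. mairei and 30 to 43 in T. mairei vs. T. cuspidata, beside 22, 33 and 39. Leaving out each library in turn gave 19 to 24, 27 to 33 and 30 to 38. Where a T. mairei library was left out, the spread of its lone partner was taken from the other species. The split by direction moved by over 10 points on unscaled TPM, as given with the counts.

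Of 63 called values of the 37 members given in full, 43 were called in the same direction in every setting run. Where the edgeR value or the other value was called, those that reversed were of comp28591_c0 (MYB28). For T. media vs. T. mairei, they were 0.21 by limma on log2(TPM + 1), on log2(TPM + 0.1) and without a filter. For T. mairei vs. T. cuspidata, edgeR gave 0.00. The values there were -2.44, -2.47 and -2.44 in those fits and -1.81 with TPM divided by TMM factors. Reads per TPM differed by species for comp28591_c0, and the cause was not tested. Uncalled values of other members also changed sign between settings. In T. media vs. T. mairei, comp27540_c0 (MYB4) went from -0.92 to as high as 0.16 and comp127916_c0 (MYB44) from -0.29 to 0.59. In T. mairei vs. T. cuspidata, comp27540_c0 went from 0.69 to as low as -0.29. Normalized counts in place of TPM moved the summed log2 ratios of MYB44 to -0.51 (from 0.28) in T. media vs. T. mairei and to 0.59 (from -0.16) in T. mairei vs. T. cuspidata, and those of MYB5 to 0.17 (from 1.37) and -0.53 (from -1.64). The cause was not tested.

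Same-numbered libraries did not deviate together (correlations of -0.0544 to 0.0379 over 9 pairs, and 2 of 9 libraries correlated best with their own number). With the replicate block, 22, 29 and 35 members were called. Low counts limit the short members, among them the MYB308 unigene comp8618_c0.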
